A study of Arabidopsis thaliana with 4 samples.

Results

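The transcripts described here had lower signals at both growth temperatures of the study when red light was low relative to far-red light (a low R:FR). They are 79 of 22596 probe sets of an Arabidopsis thaliana array, a probe set being a group of probes for a transcript. They were chosen by their own light differences: the signal in low R:FR was at least 1.5-fold below that in high R:FR (log2 of -0.585 or less) at 16 °C and again at 22 °C. The values that chose them are therefore given as a description, with no test. Seedlings of accession La-er carrying the mutant allele phyA-2, which removes the far-red photoreceptor phytochrome A, were raised on soil in white light (100 micromoles per square metre per second, R:FR 4.4). The label of the 16 °C sample in low R:FR names the mutant phyA without an allele number. High R:FR plants stayed in that light for 5 days at 16 or at 22 °C, and low R:FR plants spent the first 4 days in it and the last 24 h at an R:FR of 0.1. Each of the 4 conditions had 1 array of RNA from cotyledons with a little hypocotyl, so no value has a replicate error or a p-value, and no plant with functional phytochrome A was compared.

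Light reflected from leaves is poor in red and rich in far-red light, and plants read the ratio mainly through phytochrome B. Low R:FR inactivates phytochrome B, lets growth-promoting transcription factors of the PIF family accumulate, and starts shade avoidance: elongation of stems and petioles, hormone synthesis, and a cutback of pigments and defences. Anthocyanin synthesis and jasmonate-dependent defence are among the processes known to go down. Phytochrome B is also a temperature sensor, so that growth temperature and R:FR meet in the same pathway.

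Signals below 14.5 were set to that floor before log2 was taken, and a probe set counted as measured when the mean of its 4 log2 signals reached that of a signal of 23.2. Of 13539 measured probe sets, low R:FR gave a signal lower by 1.5-fold or more for 1128 (8.33%) at 16 °C and for 402 (2.97%) at 22 °C. The 79 lowered at both (0.583%) made up 7.0% of the list at 16 °C and 19.7% of that at 22 °C. For comparison, 156 (1.15%) were at least 1.5-fold higher at both, 68 were lower at 16 but higher at 22 °C, and 48 were the reverse. These light differences share no array. Over the 79, the log2 light difference had a median of -0.88 at 16 °C (range -2.31 to -0.60) and of -0.73 at 22 °C (range -1.73 to -0.59), against 0.01 at each temperature over all measured probe sets. Of the 79, 32 passed 2-fold at 16 °C (2.9% of all measured), 17 at 22 °C (0.502%), 8 at both (0.0591%) and 38 at neither.

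**Figure D1:**
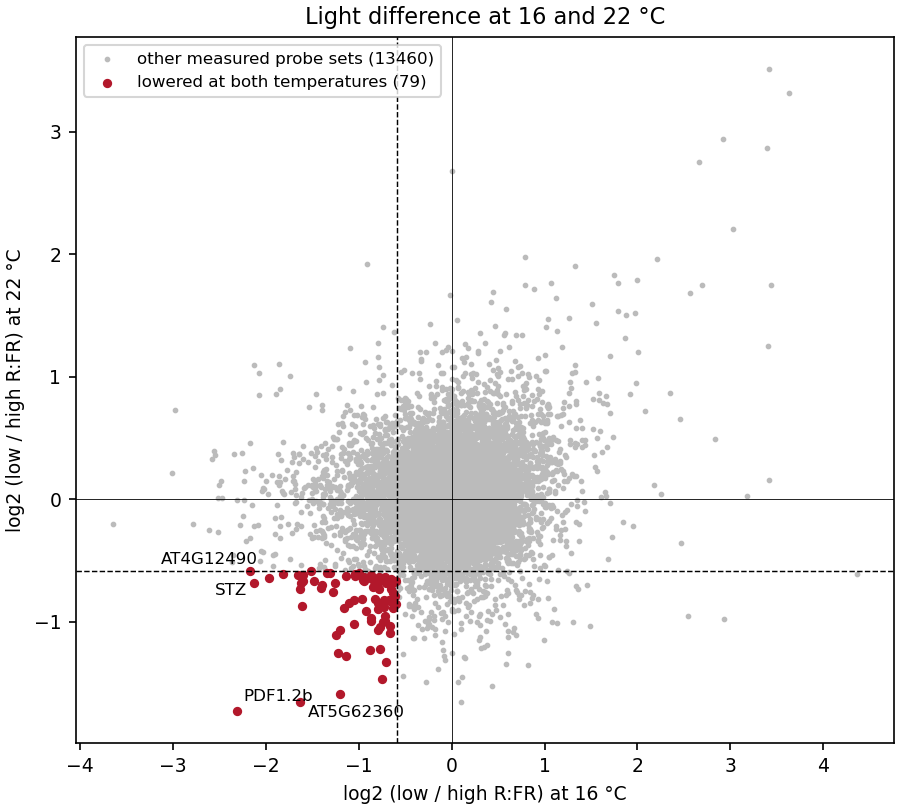
Log2 ratio of the low to the high R:FR signal at 16 °C (x axis) and at 22 °C (y axis) for all 13539 measured probe sets, 1 point each. Red points are the 79 lowered by at least 1.5-fold at both temperatures, below and to the left of the dashed lines; PDF1.2b has the lowest value of the 79 at 16 °C (-2.31) and at 22 °C (-1.73).

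Some measures of the arrays moved with light. All arrays had a 2% trimmed mean near 100.01 and medians from 36 to 40.6. The 18 probe sets of transcripts added at hybridization had light differences with an SD of 0.21 at 16 °C and 0.23 at 22 °C, which covers the error of hybridization and scanning only. The mean log2 ratio of 3' to 5' signal over 6 control pairs, a measure of RNA quality, was 0.82 in high and 0.54 in low R:FR at 16 °C, and 0.73 and 0.64 at 22 °C. At 16 °C the array in low R:FR was at least 2-fold below all 3 others for 1.9% of measured probe sets, and for 19 of the 79. Their part in the light differences was not tested. As a check of the tissue, RCA, the rubisco activase of green cells, had signals of 3872 to 4327 on the 4 arrays. The root hair marker EXPA7 had 5 to 15.8 and the shoot apex marker CLV3 0.9 to 6. PYK10, a beta-glucosidase gene of roots and hypocotyls, had 2024 and 1083 in high and low R:FR at 16 °C, and 2913 and 2835 at 22 °C. The named markers of seeds and vessels had no named probe set, nor did PHYA, whose level was not analysed. Of the low R:FR markers, IAA29 was higher by 2.66 (log2) at 16 °C and 2.76 at 22 °C, and HAT2, a homeobox gene, by 0.55 and 0.59.

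Of the 79, 51 (64.6%, against 53.5% of all measured) matched 1 gene, 10 of them with a symbol, 3 matched several genes, and 25 had no gene named here. Among the array's probe sets matched to 1 gene, none of the 51 genes had a second, so no second measurement was at hand. Probe sets with several genes or with none named were not searched for one. In the gene order of RefSeq's TAIR10.1 table, no 2 of the 51 genes lay within 10 protein-coding genes of each other. Roles given beside a bare locus number are general knowledge of that gene's family, since the tables used here do not name it.

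The lowest mean light difference of the 79 was that of a defence gene. PDF1.2b encodes a plant defensin, a small secreted antifungal protein that jasmonate and ethylene induce together. Its signal was 71.8 in high and 13.5 in low R:FR at 16 °C, and 767 and 232 at 22 °C. It was at least 4.95-fold lower at 16 °C, where the low R:FR signal lay under the floor, and 3.31-fold lower at 22 °C (local SD of the log2 change 0.33 and 0.25). The local SD is a robust SD of the same log2 difference over the 500 measured probe sets nearest in mean signal. PDF1.2, a close paralog, had 24.4 and 12.6 at 16 °C, and 164 and 59.2 at 22 °C. Both defensin probe sets were thus brighter on the 22 °C arrays, and at each temperature low R:FR gave the lower value. The array's design marks the probe set of PDF1.2b as shared with other sequences, so the 2 defensins may not be independent measurements.

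STZ (ZAT10), a zinc finger repressor induced by salt, cold, excess light and wounding, had 278 and 63.5 in high and low R:FR at 16 °C, and 535 and 333 at 22 °C. That is 4.37-fold lower at 16 °C and 1.61-fold lower at 22 °C (local SD 0.26 and 0.22), and the ranges of the light conditions overlap because the 22 °C low R:FR signal exceeds the 16 °C high R:FR one. CML38, a calmodulin-like calcium sensor induced by wounding and low oxygen, had 25.1 and 2.9 at 16 °C and 41.2 and 22.1 at 22 °C. It was 1.86-fold lower at 22 °C, less than 2 local SDs (0.49), and at least 1.73-fold lower at 16 °C. The latter is a bound that moves with the floor: its log2 value was -0.79 with the floor used here and -3.11 when the floor was the 10th percentile, below its low R:FR signal. AT4G12490, of the lipid transfer protein family related to EARLI1 and AZI1, had 2889 and 639 at 16 °C, 4.52-fold lower, and 1826 and 1217 at 22 °C (log2 -0.59). It had the brightest probe set among the 79, and its 22 °C change only just met the 1.5-fold rule. AT5G48490, a relative of the lipid transfer protein DIR1 of systemic immunity, had 875 and 531 at 16 °C and 964 and 485 at 22 °C. Here both high R:FR signals lay above both low R:FR ones, and each change exceeded 3 local SDs (0.22 and 0.18).

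The flavonoid and anthocyanin list held 29 entries. Of these, 25 had no named probe set or were not matched by symbol, and 4 were measured. Of these 4, DFR and UF3GT were lowered at both temperatures (0.583% of all measured probe sets were), by the rule that chose them. DFR, the dihydroflavonol reductase at which the anthocyanin branch begins, had 122 and 78.9 in high and low R:FR at 16 °C, and 209 and 114 at 22 °C (log2 -0.63 and -0.88). UF3GT (UGT79B1), a glycosyltransferase that adds a sugar to anthocyanins, had 45.9 and 28.1 at 16 °C and 96.9 and 38.6 at 22 °C (log2 -0.71 and -1.33). AT4G14090, which encodes an anthocyanin glucosyltransferase, had 47.2 and 20.2 at 16 °C and 63.9 and 26.8 at 22 °C (log2 -1.22 and -1.25), one of the 8 probe sets past 2-fold at both. All 3 had their highest signal at 22 °C in high R:FR and their lowest at 16 °C in low R:FR. At 16 °C the changes of DFR and UF3GT lay under 2 local SDs (0.32 and 0.44). At 22 °C they exceeded 2 local SDs (0.25 and 0.32), and those of AT4G14090 did at both temperatures (0.48 and 0.35). By general knowledge AT4G14090 is UGT75C1, an entry of the list that the symbol match missed. It is therefore not among the 4 and was added with its values known. The other measured genes of the list did not meet the rule: UGT78D1, a flavonol glycosyltransferase, was at log2 -0.02 and 0.09, and UGT78D2, which glucosylates both anthocyanidins and flavonols, at -0.30 and -0.08.

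The other members with a symbol were GID1C, EXO, LEP and CYP59. GID1C is a gibberellin receptor, which in the presence of the hormone recruits the DELLA repressors of growth for destruction. Its signal was 35.2 in high R:FR at both temperatures, and 22.2 and 16.5 in low R:FR at 16 and 22 °C (log2 -0.67 and -1.09, local SD 0.61 and 0.47). The paralog GID1A had 83.4 and 66.4 at 16 °C and 53.4 and 118 at 22 °C, and GID1B 36.8 and 25.5 at 16 °C and 36.8 and 54.4 at 22 °C. On the log2 scale GID1A was at -0.33 and GID1B at -0.53 at 16 °C, both short of 1.5-fold, and at 22 °C GID1A was at 1.15, past 1.5-fold, and GID1B at 0.56, short of it. EXO (EXORDIUM), an extracellular protein that brassinosteroids induce and that promotes leaf cell expansion, had 56.1 and 36.3 at 16 °C and 108 and 63.5 at 22 °C (log2 -0.63 and -0.76). LEP (LEAFY PETIOLE), an AP2/ERF transcription factor, had 53.8 and 29.5 at 16 °C and 38.9 and 19.6 at 22 °C (log2 -0.87 and -0.99). LEP was brighter at 16 than at 22 °C in either light. CYP59, a nuclear cyclophilin with an RNA-binding domain, had 57 and 36.1 at 16 °C and 51.8 and 33 at 22 °C, with nearly equal log2 changes of -0.66 and -0.65. Its relative CYP71 was at 0.18 and -0.26. At 16 °C the changes of EXO, LEP and CYP59 lay under 2 local SDs (0.38, 0.49 and 0.44). At 22 °C those of EXO and LEP exceeded 2 local SDs (0.28 and 0.38), and that of CYP59 did not (0.37).

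**Figure D2:**
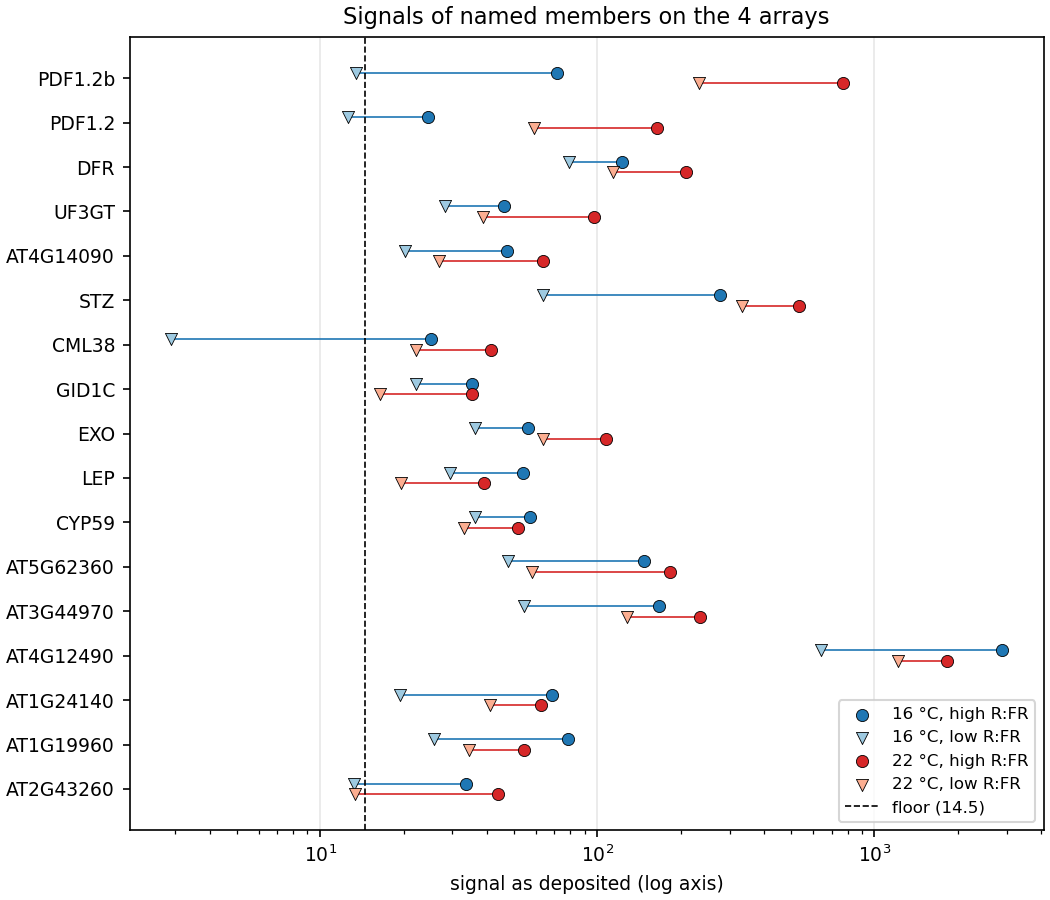
Signals as deposited, on a log axis, of 17 members on the 4 arrays: circles are high and triangles low R:FR, blue is 16 °C and red is 22 °C, with 1 array a point and a line joining the light conditions of a temperature. Every triangle lies to the left of its circle, and those left of the dashed floor (PDF1.2b, PDF1.2, CML38 and AT2G43260) give bounds only.

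Several of the largest changes belong to genes without a symbol in the tables. AT5G62360, of the family of pectin methylesterase and invertase inhibitors, had 147 and 47.6 in high and low R:FR at 16 °C, and 183 and 58.3 at 22 °C. It was 3.09-fold lower at 16 °C and 3.15-fold lower at 22 °C (local SD 0.32 and 0.26), the closest agreement between temperatures among the 8 probe sets past 2-fold at both. AT3G44970, a cytochrome P450 gene, had 167 and 54.4 at 16 °C, 3.07-fold lower, and 234 and 128 at 22 °C, 1.83-fold lower. AT1G24140, of the matrix metalloproteinase family, had 68.5 and 19.4 at 16 °C, and 62.5 and 40.9 at 22 °C. AT1G19960 had 78.5 and 25.8 at 16 °C, and 54.5 and 34.3 at 22 °C. In these 3 genes the change was larger at 16 °C. AT2G43260 had 33.5 and 13.3 at 16 °C, and 43.7 and 13.4 at 22 °C, so both low R:FR signals lay under the floor and the gene was at least 2.31-fold and at least 3.01-fold lower.

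CC-type glutaredoxins are plant-specific proteins that can bind TGA transcription factors. By a list of locus tags drawn up from general knowledge after the values were seen, named probe sets covered 17 of their genes, 13 of them measured. Of the 13, 6 were at least 1.5-fold lower at 16 °C (background 8.33%), 3 at 22 °C (background 2.97%) and 2 at both (background 0.583%). The 2 are members that the rule chose by these light differences, and they count among the 6 and among the 3. None of the 13 was at least 1.5-fold higher at either temperature, but the background for that was not counted. Genes of the family that were not measured went both ways. ROXY1 was at -0.68 at 16 °C and 0.70 at 22 °C, and AT3G62950 at -1.11 or lower and -0.73 or lower. AT3G62960 had 61.3 and 34.7 at 16 °C and 67.7 and 38.5 at 22 °C, with log2 changes of -0.82 and -0.81. AT2G30540 had 154 and 88.4 at 16 °C and 181 and 113 at 22 °C (log2 -0.80 and -0.68). Both probe sets gave each high R:FR signal above each low R:FR one. GRX480 was at -1.33 at 16 °C and 0.41 at 22 °C. In one run of neighbouring locus numbers AT4G15660 was at 0.37 and 0.04, AT4G15680 at -0.67 and 0.10, AT4G15690 at -0.55 and -0.02, and AT4G15700 at -0.95 and -0.29. Similar in size at both temperatures were also AT3G16670 (log2 -0.62 and -0.67), a pollen Ole e 1 family gene, and AT3G56360 (log2 -0.72 and -0.63). AT5G03350, a lectin-like gene, was at -1.14 and -0.62, AT4G21870, a small heat shock protein gene, at -1.04 and -0.62, and AT1G19380 at -1.04 and -0.61. Among the probe sets with no gene named, 245306_at was at log2 -1.05 and -1.01, with signals of 454 and 219 at 16 °C and 108 and 53.4 at 22 °C.

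Most of the 79 had dim probe sets, and the small signals limit their folds. Their mean signal had a median of 41.3, against 87.4 over all measured probe sets. In 47 it was under 50 and in 9 it was 200 or more. The low R:FR signal lay under the floor for 16 at 16 °C (20.3%, against 1.24% of all measured) and for 3 at 22 °C (3.8%, against 0.199%), which leaves a bound. The rule favours a low signal in low R:FR, so nothing is read from these shares. With bounds taken at the floor, the change exceeded 2 local SDs for 41 at 16 °C, for 52 at 22 °C and for 34 at both. These counts are a description, since the rule chose the members by the same changes. The share over all measured probe sets was not computed. Both low R:FR signals lay below both high R:FR ones, across temperatures, for 56 of the 79. This held for 10.5% of all measured probe sets, but the rule used the same light differences.

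The log2 changes at 16 and 22 °C lay within 0.3 of each other for 47 of the 79 (59.5%), and for 52.5% of all measured probe sets, with bounds taken at the floor. Nothing is read from that comparison, since the rule used both changes. The change was larger at 16 °C, its log2 value being the lower, for 49 of the 79 (62%). The value at 16 °C was the lower for 49.9% of all measured. The difference of the responses ranged from -1.59 for AT4G12490 to 0.72 for PDF1.2, whose response at 16 °C is limited by the floor. The rule itself puts the lowest of the 4 signals on a low R:FR array and the highest on a high R:FR one. The lowest was that of 16 °C for 58 members (73.4%, against 29.5% of all measured) and that of 22 °C for 20 (25.3%, against 24.3%), with 1 tie at the floor. The highest was that of 22 °C for 56 (70.9%, against 21.9%) and that of 16 °C for 23 (29.1%, against 21.8%). Nothing is read from these shares, since the rule limits the members to 2 arrays for each.

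**Figure D3:**
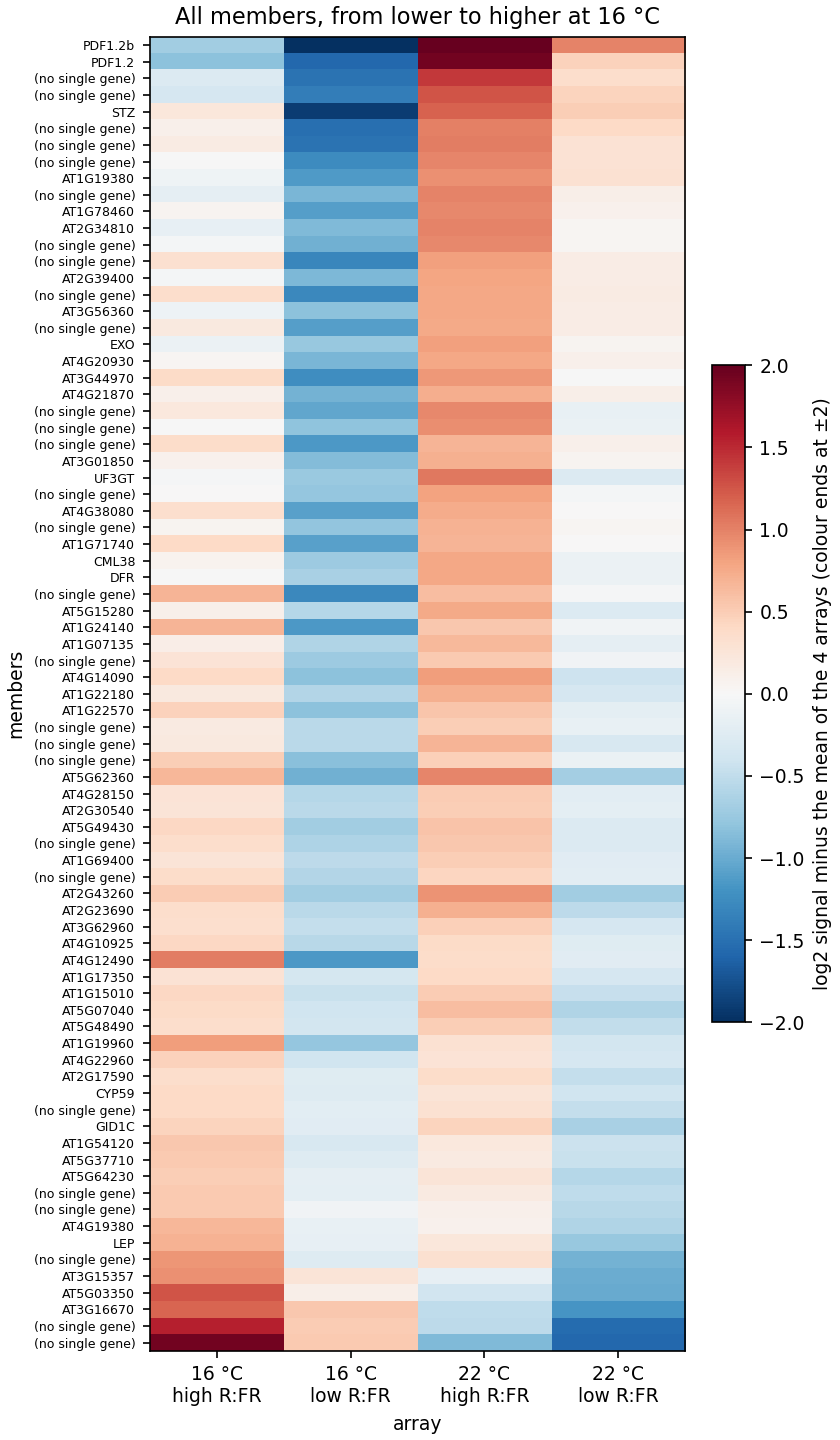
Log2 signal minus the mean of the 4 arrays (colour) for all 79 members in rows, ordered from lower at 16 °C (top) to higher at 16 °C (bottom), with the arrays in columns. The high R:FR columns are redder than the low R:FR column of the same temperature in every row, and the order of temperatures turns from top to bottom.

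Temperature was not part of the rule. As the mean of both light conditions, the log2 difference of 16 minus 22 °C had a median of -0.38 over the 79 and of -0.05 over all measured probe sets, a gap of -0.33. At least 1.5-fold lower at 16 °C were 34 of the 79 (43%, against 11% of all measured), and at least 1.5-fold higher were 6 (7.59%, against 4.62%). With arrays scaled to the same median, 30 of the same 79 were lower and 9 of the 79 were higher. Of all measured, 7.28% were lower and 9.09% higher, so both the counts and the backgrounds depend on scaling. The gap between the medians of the same 79 and of all measured was -0.33 with that scaling, -0.31 with quantile normalization, -0.25 with a pseudocount and -0.18 when the floor was the 50th percentile. In high R:FR alone, 27 (34.2%, against 10.8%) were lower at 16 °C and 6 (7.59%, against 5.48%) higher. In low R:FR it was 37 (46.8%, against 15.6%) and 7 (8.86%, against 8.46%). The same arrays gave the light differences of the rule, all plants were 5 days old, and growth stage and temperature cannot be told apart.

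Several members had lower signals at 16 °C, some as bounds because a low R:FR signal lay under the floor. PDF1.2b was at a log2 of -3.71 or lower and PDF1.2 at -2.39 or lower. STZ was at -1.67, AT1G19380 at -1.22 and AT1G78460, a SOUL heme-binding family gene, at -1.05. AT2G34810, a berberine bridge enzyme-like gene, was at -1.04 or lower, and CML38 at -0.66 or lower (-1.82 when the floor was the 10th percentile). EXO was at -0.87, UF3GT at -0.77, DFR at -0.65 and AT4G14090 at -0.42, with local SDs of 0.35 to 0.40. On the other side, AT3G16670 was higher at 16 °C by 1.69, with 740 and 481 in high and low R:FR at 16 °C and 233 and 146 at 22 °C. AT5G03350 was higher by 1.39, with 1368 and 619 at 16 °C and 438 and 284 at 22 °C. AT3G15357 was higher by at least 1.17. The probe sets 263852_at and 245306_at, with no gene named, were higher by 2.45 and 2.05. For these the colder temperature gave the higher signal in either light, and low R:FR gave the lower signal at either temperature. AT5G48490 (-0.01), AT5G07040 (-0.01), CYP59 (0.13) and GID1C (0.21) differed little with temperature.

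**Figure D4:**
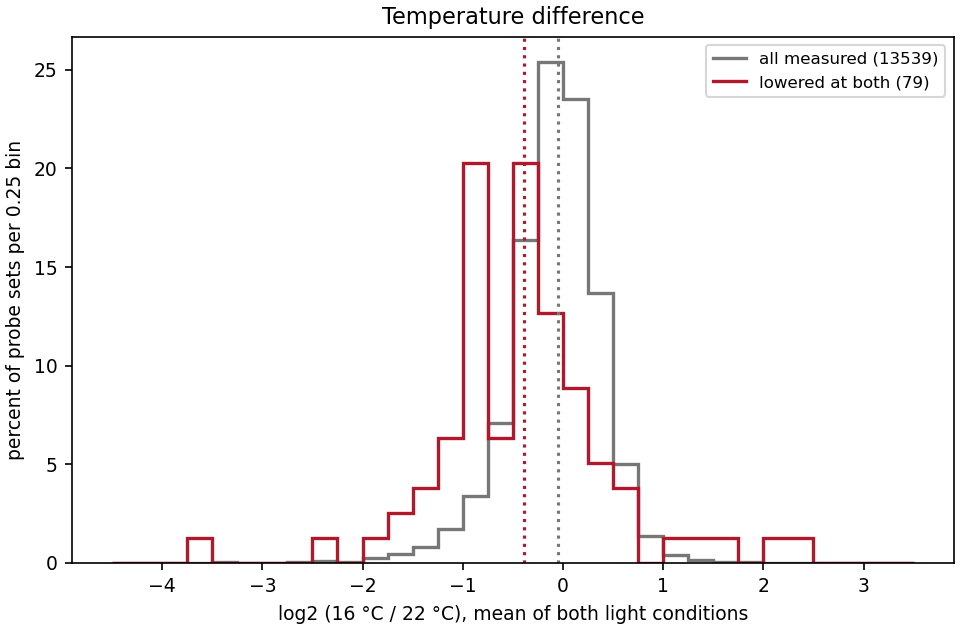
Distribution of the log2 difference of 16 minus 22 °C, as the mean of both light conditions, in percent of probe sets per bin, for the 79 members (red) and all 13539 measured probe sets (grey). Dotted lines are the medians, -0.38 and -0.05; the red distribution reaches from -3.71 to 2.45.

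Other genes of the same pathways were followed in lists, of which few genes were matched to a named probe set. Of 5 measured defensin genes, PDF1.2 and PDF1.2b were chosen by these light differences. Among the other 3, 1 was at least 1.5-fold lower at 16 °C (background 8.33%) and 0 at 22 °C (background 2.97%). PDF1.4 was lower at 16 °C alone (log2 -0.82 and 0.29), and PDF2.2 (LCR69, -0.04 and 0.02) and PDF2.3 (LCR68, -0.07 and 0.02) lay near 0. JRG21, a jasmonate-induced oxygenase gene and the only measured gene of the jasmonate list, was at -1.65 or lower at 16 °C and at 0.30 at 22 °C. Of the 3 measured calmodulin-like genes, CML38 was lowered at both temperatures, CML30 at 16 °C alone (-0.66 and -0.03), and CML42 at neither (-0.49 and 0.17). This family, the gibberellin receptors and the cyclophilins were chosen with the values known.

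Lists without a gene lowered at both temperatures were the response regulators of cytokinin, replication and chromatin assembly, glucosinolates, photomorphogenesis factors and light-harvesting proteins. They had 2, 3, 2, 1 and 3 measured genes, in that order. The jasmonate list, with 1 measured, and the low R:FR markers, with 2, held none either. With 0.583% of all measured probe sets lowered at both, so few genes say nothing about their pathways. RR16 (ARR16) was at 0.07 at 16 °C and at -1.49 or lower at 22 °C, and the histone chaperone gene ASF1B was at 0.43 and -0.94. BCAT4, an enzyme of glucosinolate chain elongation, was at 0.28 and -0.58, and HYH, a relative of the light-signalling factor HY5, at -0.26 and -0.33. LHCB4.2, an antenna protein gene, was at -0.48 and -0.37, short of the rule at both. No gene of the photoprotection list had a named probe set.

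Just inside the rule among members matched to 1 gene, by the smaller of the changes, lay AT4G12490 (log2 -0.59 at 22 °C) and AT2G17590 (-0.60 at 16 °C). Next were AT1G19380 (-0.61 at 22 °C), AT1G24140 (-0.61 at 22 °C) and AT4G22960 (-0.62 at 22 °C). Some members without a single gene lay as close or closer. Just outside among genes with a symbol was ASPGB1, an asparaginase gene, with 50.3 and 26.8 at 16 °C and 44.6 and 29.8 at 22 °C (log2 -0.91 and -0.58). SAG101, a partner of the immune regulator EDS1, followed at -0.58 and -0.51, and ENGase85B, a glycosidase gene, at -0.47 and -0.72. ChiC, a chitinase gene, was at -0.91 and -0.46, and ATG8E, an autophagy gene, at -0.74 and -0.45. The edge of the group is thus set by differences smaller than the SD of the spiked transcripts.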

How the data were processed

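Each deposited value is a linear intensity of 1 probe set on 1 array, from the authors' use of MAS5, as the submitters' processing notes name it. For its version, settings and detection calls the sources used here give nothing. The 64 control and 150 organelle probe sets were left out, signals below the 30th percentile (14.5) were set to it, log2 was taken, and a mean signal of at least 23.2 counted as measured. Differences of single arrays were computed with Python 3.11.15, pandas 2.3.3 and numpy 2.4.6. The selection code was run on simulated signals with changes planted in bright probe sets and little noise. That run checks the code only and says nothing about dim members or small changes. With 1 array per group no test was made, the number of arrays limits the precision, and p-values were not computed. Gene names came from the platform's annotation, updated through RefSeq: of 22596 probe sets 13417 had 1 gene and 13352 were matched. Named were members with a symbol, the 10 lowest with 1 gene, and list members past 1.5-fold. Also named were the 5 nearest to the rule on each side, inside among members with 1 gene and outside among genes with a symbol. Members and lists were chosen with earlier results of these data known. Other members named for their temperature difference, brightness or family were chosen with their values seen. Alternatives were 2 scalings, other floors, a pseudocount and other filters. A planned promoter search was not run, and no sequences are printed.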

Additional observations from a re-analysis of the deposited data

Results flagged for a closer look

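The temperature difference of AT4G12490 had opposite directions in the light conditions, past 1.5-fold in each: 0.66 (log2, 16 minus 22 °C) in high and -0.93 in low R:FR. The difference between them, -1.59, equals the difference of its light responses and was not tested, with 1 array per condition. It was the only one of the 79 members with such a pattern. The pattern was not counted over all measured probe sets, so the count cannot be called rare or common.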

How the results depend on the processing

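The counts of members, of those past 2-fold at both temperatures and of those lower or higher at 16 °C, and the medians of light and temperature, 7 in all, were recomputed with the members chosen anew under each of 7 alternatives, the first count also with a 2-fold rule. The report's other counts were not. Of these 50 values, 32 stayed within 1.5 times the reported count or within the SD of the spiked transcripts. The median light differences at 16 and 22 °C did so under all 7. The rule, applied anew each time, keeps them at or below -0.585, so their sign could not turn. The median temperature difference, which the rule does not use, kept its sign. Among 357 values of single named members, no light difference turned its sign and 2 temperature differences did. That of AT4G12490 went from -0.13 to 0.01 with median scaling, and that of AT1G24140 from -0.47 to 0.01 with the higher floor (37.8). The filters leave these values unchanged, and a floor or pseudocount cannot reverse a difference of 2 arrays. Only the 2 scalings could therefore turn a light difference. The count of 79 was 102 with arrays scaled to the same median, 97 with quantile normalization (78 of the 79 among them) and 82 when the floor was the 10th percentile. It was 99 with no filter and 27 with a filter at the 60th percentile of signals. It dropped to 32 when the floor was the 50th percentile (37.8), to 34 when 14.5 was added as a pseudocount instead, and to 8 with a 2-fold rule. The higher floor sets signals under 37.8 equal, and 50 of the 79 stayed below 0 at both temperatures. The 8 members past 2-fold at both became 2 with that floor, 2 with the pseudocount and 3 with the stricter filter. Those lower at 16 °C (34) became 14, 18 and 16. Those higher (6) became 3 with the floor, 3 with the pseudocount, 12 with median scaling and 10 with quantile normalization. The median temperature difference was -0.16 with median scaling, -0.22 with quantile normalization, -0.71 with the pseudocount and -0.73 with the stricter filter. Median scaling moved the median temperature difference of all measured probe sets from -0.05 to 0.09. The causes were not tested. Under all 5 changes of scaling and floor 20 members were kept, among them PDF1.2b, STZ, AT5G62360, AT5G48490, AT3G44970, AT3G16670, AT5G03350, AT2G30540 and AT3G62960. GID1C, UF3GT, PDF1.2, CYP59, EXO and AT1G19960 did not meet the rule with the higher floor or with the pseudocount, LEP, CML38, AT2G43260 and AT4G14090 did not with the higher floor, AT1G24140, DFR and AT4G12490 did not with the pseudocount, and AT4G12490 did not with quantile normalization. No paired analysis was possible because each group has 1 array and the groups share only 1 replicate number.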
